A study of Homo sapiens with 9 samples.

Results

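CTDP1 is the gene that both test hairpins in this study were directed against, and its RNA was followed here through all 9 libraries. RNA was sequenced from MDA-MB-231, an established human triple-negative breast cancer cell line, after infection with a lentivirus carrying a short hairpin RNA and selection with puromycin. The hairpin was shCTDP1-#1 (3 libraries), shCTDP1-#2 (3 libraries) or the control shScr (3 libraries), so every group had passed through infection and selection. No library came from uninfected cells. Whether libraries that share a hairpin were grown as separate cultures is not stated in the labels, so each p-value gauges variation among these libraries alone, and that variation may be technical.

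Each library gives a level in TPM, a transcript abundance scaled by length and to the same total in every library, for genomic intervals on hg19 that carry no gene names. CTDP1 was taken as the interval with the highest ratio of overlap to union with the CTDP1 span, 1 interval among 55527 with coordinates of their own. That interval lies on chromosome 18 from 77439801 to 77514510, is 74710 bases long and matches the span at both ends. The next best interval reached a ratio of 0.0125. TPM keeps no read total, so the depth behind each value is unknown and no counting interval is given. The number of intervals above 0 was 19688 to 20208 with shScr, 22043 to 22636 with shCTDP1-#1 and 21714 to 22236 with shCTDP1-#2. Every shScr library thus had fewer intervals above 0 than any hairpin library, which bears on values near 0. The cause was not tested. Mitochondrial intervals took 1.90% to 2.00% of the TPM with shCTDP1-#1, 1.64% to 2.28% with shCTDP1-#2, and 1.12%, 1.66% and 4.47% with shScr, so that shScr replicate 1 stood apart. The level of MDA-MB-231 marker genes and of other genes acting on RNA polymerase II was not analysed here, because no annotation of the files' build was at hand to name their intervals.

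CTDP1, also known as FCP1, is a phosphatase of RNA polymerase II. The largest subunit of that polymerase ends in a long tail of repeats, the C-terminal domain, which kinases phosphorylate as transcription starts and proceeds. CTDP1 removes these phosphates so that the polymerase can be used for another round, and it is helped in this by the general transcription factor TFIIF, which it binds. An inherited defect in CTDP1 causes a syndrome of congenital cataracts, facial dysmorphism and neuropathy.

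The stretch just before the start of CTDP1 is shown because in the files another interval ends only 55 bases before the CTDP1 interval begins. RefSeq lists 2 start windows for CTDP1, and the one printed holds the first base of CTDP1-DT, a long noncoding RNA gene on the opposite strand. The 250 bases before the first CTDP1 base lie at chr18:79679553-79679802 in GRCh38.p14, a later build than that of the files, on the plus strand. The capitals mark TGACGTCA, the letters that the transcription factors CREB and ATF are known to bind.
CTDP1 promoter: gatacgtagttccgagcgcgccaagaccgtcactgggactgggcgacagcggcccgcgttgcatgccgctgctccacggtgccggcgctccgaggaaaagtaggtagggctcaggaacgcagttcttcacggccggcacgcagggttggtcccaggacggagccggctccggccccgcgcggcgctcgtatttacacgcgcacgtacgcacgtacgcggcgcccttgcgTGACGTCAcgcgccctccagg

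The stretch is rich in G and C, at 69.2% of its bases against a median of 58.0% over 35116 RefSeq windows cut to the same 250 bases. It holds 38 CpG pairs, against a median of 11. TGACGTCA reads the same on both strands and stood in 1.65% of these windows. In the CTDP1 window it lay between both starts, with 36 bases between it and the first base of CTDP1-DT and 13 between it and the first base of CTDP1. TATAAA, searched on both strands, was not in the window and was in 10.7% of all windows. Such matches describe the letters and do not show a bound site.

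CTDP1 RNA was lower in all 6 libraries with a CTDP1 hairpin than in any shScr library. Its level was 2.46, 2.62 and 2.46 TPM in the 3 shCTDP1-#1 libraries, against 13.06, 12.38 and 12.01 TPM in the 3 shScr libraries. The groups did not overlap, and the highest shCTDP1-#1 library held 21.8% of the lowest shScr library. The mean was 2.51 ± 0.09 TPM with shCTDP1-#1 and 12.5 ± 0.5 TPM with shScr (SD, n = 3 each), so 20.1% of the shScr level remained with shCTDP1-#1. On the log2(TPM + 1) scale, which understates changes of low values, CTDP1 fell with shCTDP1-#1 (log2 change -1.94, SE 0.10, 95% confidence interval -2.16 to -1.72, limma with Benjamini-Hochberg adjustment over 15011 tested intervals, adjusted p = 6.3e-08). In that comparison 63.1% of tested intervals were called at an adjusted p under 0.05, and 27.7% were called lower.

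With shCTDP1-#2 the level of CTDP1 was 3.77, 3.42 and 4.10 TPM, against the same 3 shScr libraries. These groups did not overlap either, and the highest shCTDP1-#2 library held 34.1% of the lowest shScr library. The mean was 3.76 ± 0.34 TPM with shCTDP1-#2 and 12.5 ± 0.5 TPM with shScr (SD, n = 3 each), so 30.1% of the shScr level remained. CTDP1 fell with shCTDP1-#2 on the log2(TPM + 1) scale too (log2 change -1.50, SE 0.10, 95% confidence interval -1.72 to -1.29, limma adjusted p = 4.0e-07). In that comparison 64.0% of tested intervals were called and 24.6% were called lower. Both comparisons use the same 3 shScr libraries.

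A call alone does little to set CTDP1 apart where most intervals are called, so its place among all changes is given by size. How many intervals part the groups without overlap was not counted. The lack of overlap is therefore a description only, for CTDP1 and for the intervals named below. Of 15011 tested intervals, 35 fell further than CTDP1 with shCTDP1-#1 and 53 fell further with shCTDP1-#2, which is 0.233% and 0.353% of them. The number that fell at least as far with each hairpin was 12. These counts depend on the weight of low values: with a pseudocount of 0.1 TPM they were 79, 99 and 24. The shScr mean of 2455 intervals lay within 1.5-fold of that of CTDP1 (8.32 to 18.7 TPM). Among them, on the log2(TPM + 1) scale, 7 fell further than CTDP1 with shCTDP1-#1 and 14 with shCTDP1-#2. On that scale 2 of them fell at least as far with each hairpin. Over the tested intervals as a whole the median log2 change was 0.07 with shCTDP1-#1 and 0.13 with shCTDP1-#2. Median-of-ratios scaling, which sets these medians near 0, gave a CTDP1 log2 change of -2.0 with shCTDP1-#1 and -1.62 with shCTDP1-#2.

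**Figure D1:**
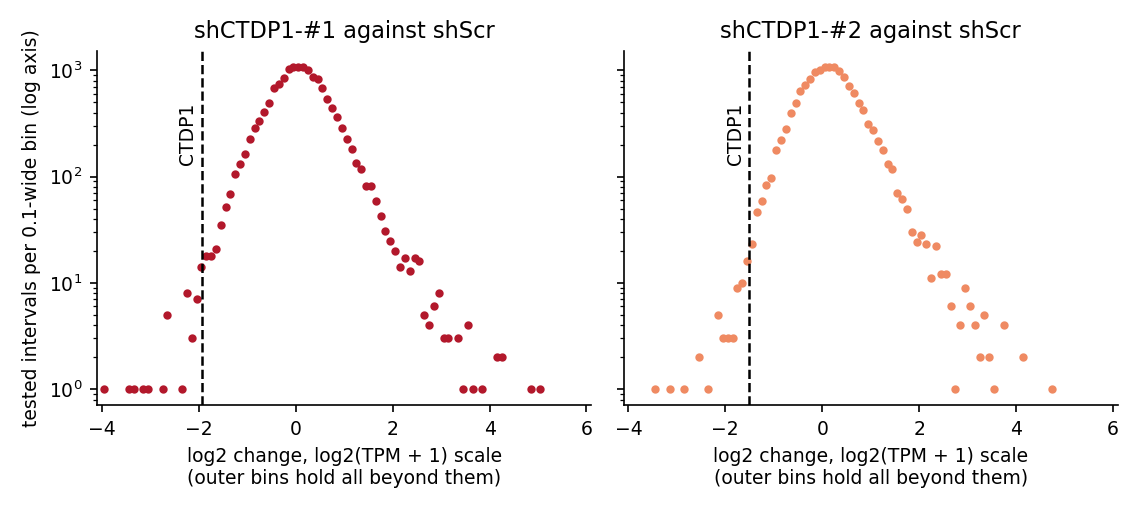
Number of tested intervals (log axis) in each 0.1-wide bin of log2 change on the log2(TPM + 1) scale, for shCTDP1-#1 against shScr and for shCTDP1-#2 against shScr. The dashed line marks CTDP1, at -1.94 and -1.50, in the far left tail of both distributions.

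For the CTDP1 log2 values, exact two-sided permutation gave p = 0.1 for either hairpin against shScr, the smallest that 3 against 3 libraries allow. With the 6 hairpin libraries as 1 group against the 3 shScr libraries, CTDP1 averaged 3.14 TPM against 12.5 TPM, and an exact two-sided permutation test reached p = 0.0238, the smallest that 6 against 3 allow. The libraries of the 2 hairpins are not replicates of 1 treatment, so that value speaks only of the split between CTDP1 hairpins and shScr. In limma the mean of both hairpins lay below shScr (log2 change -1.72, SE 0.08, adjusted p = 4.8e-08), in a comparison where 66.0% of tested intervals were called, 39.1% higher and 26.9% lower.

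**Figure D2:**
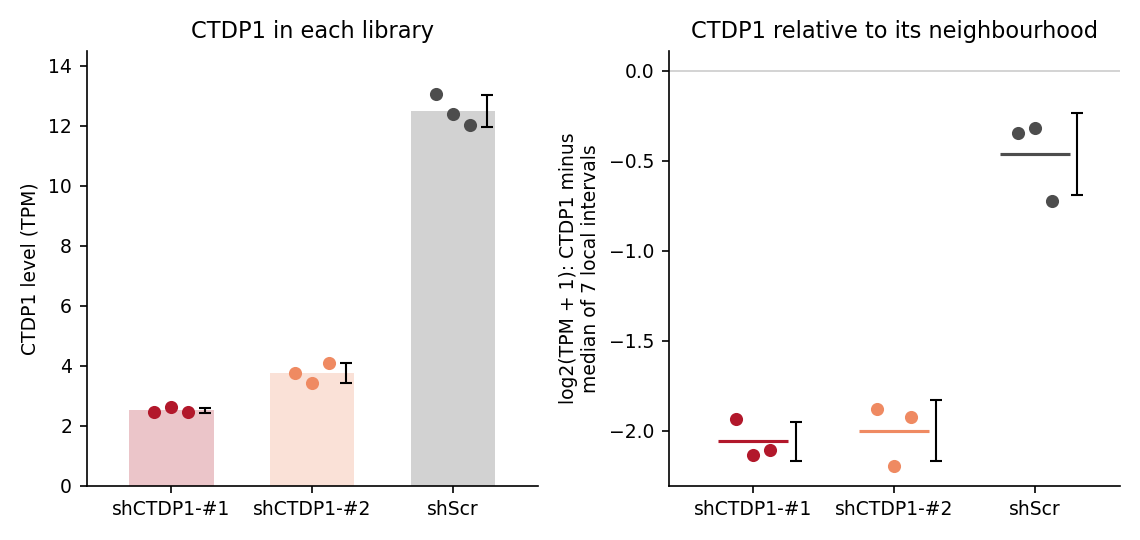
Left, CTDP1 level in TPM in each library (points), with the group mean (bars) and SD (error bars, n = 3). Right, log2(TPM + 1) of CTDP1 minus the median of log2(TPM + 1) over 7 local intervals in the same library, with group means (lines) and SD. CTDP1 lies between 2.46 and 4.10 TPM in the hairpin libraries and between 12.01 and 13.06 TPM in the shScr libraries.

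The hairpins left different amounts of CTDP1 RNA. The 3 shCTDP1-#2 libraries held 3.42 to 4.10 TPM and the 3 shCTDP1-#1 libraries 2.46 to 2.62 TPM, without overlap. The mean with shCTDP1-#2 was 1.5 times the mean with shCTDP1-#1. The log2 difference of shCTDP1-#2 over shCTDP1-#1 was 0.44 (SE 0.10, 95% confidence interval 0.22 to 0.65, limma adjusted p = 0.0036), in a comparison where 50.2% of tested intervals were called 30.2% higher and 20.0% lower. An exact two-sided permutation test of the CTDP1 values reached the smallest p possible, p = 0.1. The order of the levels was thus shCTDP1-#1, shCTDP1-#2 and shScr, low to high, and all neighbours in that order differed in limma.

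The spread of CTDP1 within a group was small beside these differences. The coefficient of variation was 3.68% with shCTDP1-#1, 9.04% with shCTDP1-#2 and 4.27% with shScr. In the shScr libraries the median coefficient of variation of the 2455 intervals of similar level was 8.06%, and 20.04% of them varied less than CTDP1. In rank, CTDP1 stood above 16.7% to 17.9% of tested intervals in the shCTDP1-#1 libraries, above 21.0% to 23.4% in the shCTDP1-#2 libraries and above 43.5% to 44.5% in the shScr libraries. CTDP1 was thus a gene of middling level among tested intervals in the control cells and stood lower in rank with either hairpin.

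The surroundings of CTDP1 were compared in a window on chromosome 18 from 76.5 to 78.0 Mb, which held 25 other intervals with coordinates of their own. Of these, 7 passed the filter of at least 1 TPM in at least 3 libraries, 1 at lower and 6 at higher coordinates than CTDP1. The other 18 did not exceed 1.59 TPM in any library, and 10 of them were listed at 0 in all 9. The interval that ends 55 bases before CTDP1, from 77398928 to 77439745, was listed at 0, 0.10 and 0.19 TPM with shCTDP1-#2 and at 0 in the other 6 libraries. A second interval, from 77462721 to 77463651, lies inside CTDP1 and was listed at 0 in all 9 libraries. Per the labels' protocols the libraries came from a TruSeq v2 kit, which does not mark the strand, so reads of a transcript and its antisense partner cannot be told apart.

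None of the 7 neighbours was called lower with both hairpins, where 16.5% of all tested intervals were, so that count does not set them apart. Without the filter, 2 intervals of the window were called lower with shCTDP1-#1 and 2 with shCTDP1-#2, beside 3972 and 3475 over all intervals. They were not the same 2, since the interval from 77724561 to 77730822 was called lower with shCTDP1-#1 but higher with shCTDP1-#2. Below the filter, the interval from 76877207 to 76877920 held 0.91, 0.95 and 0.35 TPM with shScr. It held 0, 0.18 and 0 TPM with shCTDP1-#1 and 0.37, 0 and 0.17 TPM with shCTDP1-#2. The changes of the 7 tested neighbours on the log2(TPM + 1) scale were smaller than that of CTDP1. With shCTDP1-#1 against shScr, 2 rose, 1 fell and 4 did not pass the test, beside 35.4% called higher and 27.7% called lower over all tested intervals. Their log2 changes ran from -0.46 to 1.03 with a median of 0.14. With shCTDP1-#2 against shScr, 5 rose, 1 fell and 1 did not pass, beside 39.5% called higher and 24.6% called lower. Their log2 changes ran from -0.52 to 0.86 with a median of 0.38. The rises with each hairpin include the interval from 77905807 to 77936315, which passed the filter only through the hairpin libraries. After median-of-ratios scaling 2 rose and 2 fell with shCTDP1-#1, beside 32.2% called higher and 31.0% called lower over all tested intervals, and 3 rose and 2 fell with shCTDP1-#2, beside 31.6% and 31.3%.

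The nearest tested interval at lower coordinates, from 77155856 to 77289325, held 2.94, 3.10 and 3.45 TPM with shCTDP1-#1, 3.51, 3.25 and 3.97 TPM with shCTDP1-#2, and 2.29, 2.65 and 2.57 TPM with shScr. Every hairpin library lay above every shScr library, but the share of all tested intervals that part in this way was not counted. The log2 change was 0.25 (SE 0.12, limma adjusted p = 0.089) with shCTDP1-#1 and 0.38 (SE 0.12, limma adjusted p = 0.015) with shCTDP1-#2. The call with shCTDP1-#2 was lost after median-of-ratios scaling (adjusted p = 0.052), without shScr replicate 1 (adjusted p = 0.053) and without shCTDP1-#2 replicate 3 (adjusted p = 0.060). The change with shCTDP1-#1 became a call without limma's trend and robust options (adjusted p = 0.023).

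The nearest tested interval at higher coordinates, from 77662420 to 77711664, held 32.7, 33.1 and 35.0 TPM with shCTDP1-#1, 28.01, 26.6 and 25.4 TPM with shCTDP1-#2, and 26.8, 26.2 and 27.3 TPM with shScr. The shCTDP1-#1 libraries stood above all others, while the shCTDP1-#2 and shScr libraries overlapped. It rose with shCTDP1-#1 (log2 change 0.32, SE 0.06, limma adjusted p = 6.2e-04), and its log2 change with shCTDP1-#2 was -0.01 (SE 0.06, limma adjusted p = 0.92).

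A single neighbour was called higher with both hairpins, as were 26.4% of all tested intervals: the interval from 77905807 to 77936315, at low level. It held 1.13, 1.81 and 1.15 TPM with shCTDP1-#1, 0.80, 1.22 and 1.24 TPM with shCTDP1-#2, and 0.18, 0.28 and 0 TPM with shScr. The hairpin and shScr libraries did not overlap. However, it passed the filter only through the hairpin libraries, where it is high, so among the filtered intervals it had to differ. It was also named here for its rise with both hairpins, so its changes are a description, with no test. In the fit without that filter its log2 change was 1.03 (SE 0.17) with shCTDP1-#1 and 0.86 (SE 0.17) with shCTDP1-#2. With a pseudocount of 0.1 TPM, which weighs low values more, its log2 change was 2.70 with shCTDP1-#1 and 2.41 with shCTDP1-#2, larger in size than the -2.27 and -1.71 of CTDP1 under that setting.

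**Figure D3:**
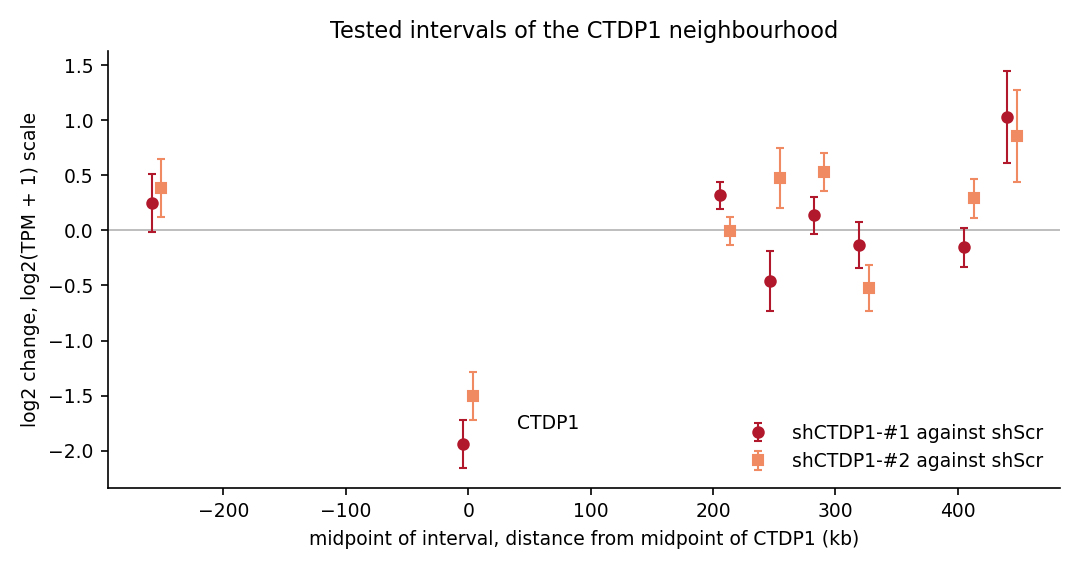
Log2 change on the log2(TPM + 1) scale, with 95% confidence intervals from limma, of CTDP1 and the 7 tested intervals around it, against the distance in kb between interval midpoints. Circles show shCTDP1-#1 and squares shCTDP1-#2, each against shScr. CTDP1 lies at -1.94 and -1.50, and the other intervals lie between -0.52 and 1.03.

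Set against its own neighbourhood, CTDP1 was lower with each hairpin as well. Its log2 value minus the median of the 7 neighbours was -2.06 ± 0.11 with shCTDP1-#1, -2.0 ± 0.17 with shCTDP1-#2 and -0.46 ± 0.23 with shScr (SD, n = 3 each). Both hairpin groups lay below all shScr libraries. The median of 7 neighbours is the level of 1 interval, and that interval was not the same in every library. In the 3 shScr libraries it was the interval from 77724561 to 77730822, which was called in opposite directions with the 2 hairpins. In the hairpin libraries it was mostly the interval from 77866915 to 77905406. The difference was -1.60 for shCTDP1-#1 over shScr and -1.54 for shCTDP1-#2 over shScr (exact two-sided permutation test, p = 0.1 each, the smallest possible), and -1.57 for the 6 hairpin libraries over the 3 shScr libraries (exact permutation p = 0.0238, again the smallest possible).

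On this relative scale the difference in CTDP1 of shCTDP1-#2 over shCTDP1-#1 was small and depended on how the neighbours were summarised. Against their median it was 0.06, with overlapping libraries (exact two-sided permutation test, p = 0.8). Against their summed level it was 0.15, without overlap (exact permutation p = 0.1, the smallest possible), and with a pseudocount of 0.1 TPM it was 0.16 (exact permutation p = 0.3). The median level of the neighbours was 16.6 to 19.3 TPM in the shCTDP1-#2 libraries and 12.2 to 14.9 TPM in the shCTDP1-#1 libraries. The neighbours did not move one way: 3 were called higher with shCTDP1-#2 than with shCTDP1-#1, 2 lower and 2 were not called, beside 30.2% higher and 20.0% lower over all tested intervals. Against the whole transcriptome the difference held, since median-of-ratios scaling gave a log2 difference of 0.38 (limma adjusted p = 0.0068).

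The intervals most like CTDP1 were sought among 10979 tested intervals with a mean of at least 5 TPM, off the X, Y and mitochondrial sequences. Likeness was the root mean square difference from CTDP1 over the 9 libraries, in log2(TPM + 1) after subtracting each interval's own shScr mean. The closest was the interval on chromosome 7 from 45927956 to 45933267, with a difference of 0.11. It held 9.07, 9.05 and 8.75 TPM with shCTDP1-#1, 11.0, 10.8 and 10.6 TPM with shCTDP1-#2, and 35.2, 36.6 and 36.8 TPM with shScr. Next was the interval on chromosome 16 from 56642111 to 56643409, with a difference of 0.13 and a far higher level. It held 451, 478 and 453 TPM with shCTDP1-#1, 616, 563 and 620 TPM with shCTDP1-#2, and 1536, 1540 and 1654 TPM with shScr. Both were chosen for a profile like that of CTDP1, so their changes are a description, with no test: the log2 changes with shCTDP1-#1 and shCTDP1-#2 were -1.90 and -1.65 for the chromosome 7 interval and -1.77 and -1.39 for the chromosome 16 interval. The 9 libraries fall into 3 groups, so such likeness rests mainly on the 3 group means.

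**Figure D4:**
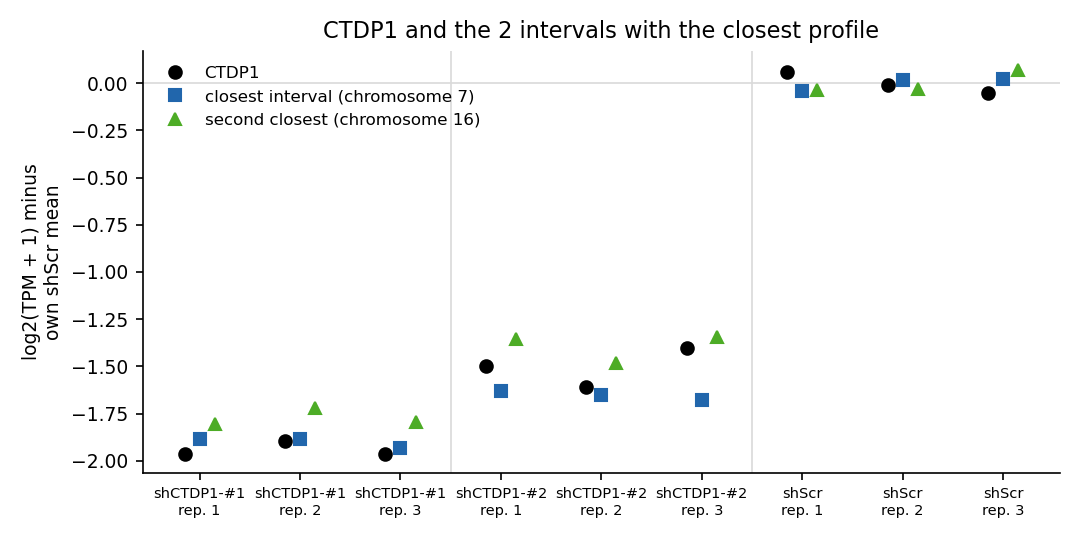
Log2(TPM + 1) minus the interval's own shScr mean, in each of the 9 libraries, for CTDP1 (circles) and for the 2 intervals closest to it, on chromosome 7 (squares) and chromosome 16 (triangles). All 3 are lowest with shCTDP1-#1, somewhat higher with shCTDP1-#2 and near 0 with shScr.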

How the data were processed

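RNA-seq of 9 MDA-MB-231 libraries was used. STAR and RSEM on hg19 are named, per the submitters' processing notes; their versions are not given in the sources used here. Each library's deposited file lists 57773 intervals, whose values are taken as TPM because the deposited values of each library sum to that unit's fixed total and carry decimals. Files were joined on coordinates, and 2246 rows that share coordinates with another row were left out. Starts count from 1: all 37 mitochondrial intervals equal GENCODE v29 at both ends. No 2 libraries were identical.

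The test covered the 15011 intervals that reached 1 TPM in 3 or more libraries. A limma 3.58.1 model was fitted to log2(TPM + 1) (trend and robust options, statmod 1.5.0, R 4.3.3) with group means over all 9 libraries, and adjusted p-values are Benjamini-Hochberg over all tested intervals with a threshold of 0.05. Exact permutation tests, of CTDP1 and of CTDP1 relative to the median of its 7 tested neighbours, used scipy 1.17.1. The gene, the window, the tests and the rules for named intervals (nearest tested neighbour on each side, largest rise and fall with both hairpins, 2 closest profiles) were chosen with earlier results of these data known. Pseudocount, filter, scaling, model options, samples in the fit, the replicate block, single libraries left out and the treatment of shared coordinates were varied. The planned list of polymerase genes was not analysed here. Replicate numbers recur across groups, and the libraries were not treated as paired in the main fit. Deviations from the group means correlated at -0.01 to 0.05 between libraries with the same number. Each of the 9 libraries nonetheless came closest, on average, to those with its own number, which was not tested.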

Additional observations from a re-analysis of the deposited data

Results flagged for a closer look

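These intervals were flagged because their change against shScr differed between the hairpins, by limma's contrast of the hairpins itself. In it 50.2% of tested intervals were called, so such a call does not set them apart. Of the 7 neighbours, 3 were called higher and 2 lower in that contrast, and not all of these are listed here. For CTDP1 the log2 difference of shCTDP1-#2 over shCTDP1-#1 was 0.44 (adjusted p = 0.0036). For the neighbour on chromosome 18 from 77662420 to 77711664 it was -0.32 (adjusted p = 7.9e-04).

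The neighbour on chromosome 18 from 77724561 to 77730822, singled out after its values were seen, was called in opposite directions. It held 12.0, 14.9 and 11.0 TPM with shCTDP1-#1, 23.5, 24.0 and 27.2 TPM with shCTDP1-#2, and 16.9, 15.7 and 20.5 TPM with shScr. It fell with shCTDP1-#1 (log2 change -0.46, adjusted p = 0.0078) and rose with shCTDP1-#2 (log2 change 0.47, adjusted p = 0.0064), and the log2 difference of shCTDP1-#2 over shCTDP1-#1 was 0.93 (adjusted p = 1.2e-04). The interval was picked for its opposite calls, so these p-values restate that choice and its changes are a description, with no test.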

How the results depend on the processing

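The CTDP1 calls kept their direction and their side of the threshold under all alternatives run. The CTDP1 log2 change ran from -2.27 to -1.91 with shCTDP1-#1 against shScr (highest adjusted p = 1.6e-06), from -1.71 to -1.45 with shCTDP1-#2 against shScr (highest adjusted p = 6.9e-06), from 0.38 to 0.56 for shCTDP1-#2 over shCTDP1-#1 (highest adjusted p = 0.019) and from -1.99 to -1.69 for the mean of both hairpins (highest adjusted p = 1.3e-06). The difference of CTDP1 from its neighbourhood over 6 against 3 libraries ran from -1.70 to -1.50 with 1 library left out; without an shScr library its exact permutation p was 0.0714, the smallest that 6 against 2 allow. The corresponding difference between the hairpins ran from 0.00059 to 0.16.

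The number of intervals that fell further than CTDP1, whose alternatives were added after seeing the data, stayed within 1.5 times its value except with a pseudocount of 0.1 TPM, where it was 79 with shCTDP1-#1 and 99 with shCTDP1-#2, and 24 fell at least as far with each; this setting enlarges the changes of low intervals. Counts of called neighbours are small and moved with the filter and the scaling; the cause was not tested for the scaling. With no filter more intervals enter, and 2 neighbours were called lower with shCTDP1-#1, 2 with shCTDP1-#2 and 2 with the mean of both. Over all intervals of that fit 3972, 3475 and 3941 were called lower. With a mean of at least 5 TPM fewer enter, and 1, 3 and 2 were called higher, beside 4119, 4573 and 4445 over all intervals of that fit. The shares called under these filter settings are not given. With median-of-ratios scaling 2 were called lower with shCTDP1-#1 and 2 with shCTDP1-#2, beside 31.0% and 31.3% over all tested intervals. With that scaling 3 were called higher with shCTDP1-#2, beside 31.6%, and 2 with the mean of both, beside 4907 of 15011 intervals. The neighbour from 77662420 to 77711664 had a log2 change near 0 with shCTDP1-#2, from -0.043 to 0.026 with 1 library left out, and was called lower at -0.14 (adjusted p = 0.048) after median-of-ratios scaling.

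The correlation of deviations from the group means was -0.01 to 0.05 between libraries that share a replicate number across groups and -0.05 to 0.02 between the rest. All lay under 0.1, and the libraries were not treated as paired in the main fit, though low values do not exclude pairing. Each of the 9 libraries came closest, on average, to those with its own number, which is a hint in the data that the design does not give. With the replicate block the CTDP1 log2 changes were -1.94, -1.50, 0.44 and -1.72 in the same order as above, and every CTDP1 call held. Depth is unknown, so the precision of single TPM values cannot be given.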

Other observations

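The hairpins left different amounts of CTDP1 but the typical size of change across the transcriptome was alike in number. The median absolute log2 change over 15011 tested intervals was 0.39 with shCTDP1-#1, at 20.1% of the shScr level of CTDP1, and 0.39 with shCTDP1-#2, at 30.1%. Both values rest on the same 3 shScr libraries, and the difference between them was not tested.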
